A study of Mus musculus with 4 samples.

Results

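Of the 490 lineage barcodes seen in the series, 12 met 3 conditions that were set on the multiome libraries. Each was called in at least 10 untreated cells, each was called in 0 eribulin cells, and each had more of its untreated cells in chromatin cluster 6 than in any other cluster, with ties going to the lower cluster number. These are the lost lineages based in cluster 6. Together they had 510 of the 4772 untreated multiome cells with a single called barcode (10.7%, 9.82 to 11.6). Size, absence after eribulin and base cluster were what selected the barcodes, so these values describe the set and were not tested. Intervals are exact 95% binomial (Clopper-Pearson) intervals and cover counting error only, since cells of 1 library are not replicates.

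The cells were PB3, a mouse mammary tumor line, grown either without treatment or through 4 rounds of 500 nM eribulin, each of 72 h with drug followed by 48 h of recovery. Run 3 profiled nuclei of both conditions with a multiome assay, of which the ATAC part is used here, and run 1 with single-cell ATAC-seq (scATAC), in 1 library per condition and run. The sources used here do not say whether untreated and treated cells, or both runs, came from 1 barcoded culture. There were 9583 untreated and 8114 eribulin nuclei in run 3, with 61629245 and 49446970 Tn5 cut sites in peaks. Run 1 had 9361 and 16724 cells, with 84615925 and 127710435 cut sites. One tag, and no other, was called in 49.8% of untreated multiome cells but in 17.1% of those after eribulin. In scATAC this was so for only 29 untreated and 84 eribulin cells. Of the droplet sequences that name cells, 123 occurred in both multiome libraries and 215 in both scATAC libraries, and 8 of the 510 member cells bore a sequence shared with the eribulin multiome library.

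A lentiviral lineage barcode is a short DNA tag that integrates into the genome of an infected cell and is passed to all of its descendants, so that cells with the same tag form 1 clone. Eribulin binds microtubule ends and blocks their growth, which stops cells in mitosis. ATAC-seq uses the Tn5 transposase to cut accessible DNA, and cells with a similar set of open regions fall into the same cluster. Comparing tags with and without drug shows which clones are still present, and comparing tags with clusters shows which chromatin states a clone occupies. No values of single genes or peaks were analysed here, so clusters go by number.

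Each tag was 48 bases long and was made of a short part of 14 bases, the linker TGGT at bases 15 to 18 and a long part of 30 bases. The sequences of the 5 largest members follow, together with 5-59042, the member with the smallest share of cells in cluster 6. Last comes 6-93034, a cluster 6 barcode that stayed after eribulin. It was added after its values were seen because it has the same short part as member 6-94927. Names give the number of the short and of the long part, and capitals mark the long part.
50-60095: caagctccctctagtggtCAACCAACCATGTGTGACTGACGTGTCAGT
30-58918: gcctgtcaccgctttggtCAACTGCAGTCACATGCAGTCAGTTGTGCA
55-68976: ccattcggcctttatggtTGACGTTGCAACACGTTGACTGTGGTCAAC
6-94927: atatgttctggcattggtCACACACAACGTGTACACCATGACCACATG
21-28628: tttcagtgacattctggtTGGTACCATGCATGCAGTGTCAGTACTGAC
5-59042: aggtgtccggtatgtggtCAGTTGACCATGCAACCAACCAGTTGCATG
6-93034: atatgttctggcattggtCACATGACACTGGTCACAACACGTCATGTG

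The 12 tags were distinct in both parts. They used 12 different short parts, whereas the 125 barcodes with at least 10 untreated multiome cells used 60. Every long part of the deposited list was built only from the base pairs AC, CA, GT and TG in a row, which fixes its GC content at 50%. The short parts of the 7 sequences above had a GC content between 35.7% and 64.3%, and those of the whole list between 28.6% and 78.6%. Any 2 members differed at 12 to 28 of the 30 long-part bases, with a median of 22, which was also the median over all pairs of the 125 barcodes. Barcodes 6-94927 and 6-93034, which share the short part, differed at 18 long-part bases. Barcode 55-68976 shares its short part with 55-23349, which had 146 eribulin cells, and differed from it at 24 long-part bases. The long part of each member differed by at least 12 bases from that of every barcode called in the eribulin multiome library.

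The 12 lineages differed greatly in size. Barcode 50-60095 had 112 untreated multiome cells and 30-58918 had 97. Barcode 55-68976 had 76 cells, 6-94927 had 59 and 21-28628 had 57. After these 5 came a gap, and the remaining 7 had 11 to 19 cells each. Barcode 15-58202 had 19 cells, and 61-16851 and 89-62622 had 18 each. Barcode 37-46701 had 15 cells, 16-28768 and 96-27973 had 14 each and 5-59042 had 11. The 5 large lineages thus held 401 of the 510 cells (78.6%). The median size was 18.5 cells, close to the 19 of the other 95 lost barcodes.

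Members supplied over 50% of the called cells in cluster 6. They were chosen for having most of their cells there, which raises this share, so it only describes the set. Of its 1411 untreated multiome cells, 700 had a single called barcode. Members had 377 of the 700 (53.9%, 50.1 to 57.6), and the 5 large ones alone had 312 (44.6%). The other 323 called cells were spread over further barcodes, of a total of 170 in the cluster. The rate of calling was not unusual there, with 49.6% of the cluster 6 cells called against 49.8% of the library.

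The share of a lineage's cells in its base cluster, here called its purity, had 2 levels among the large members. Barcode 30-58918 was the purest, with 86 of 97 cells in cluster 6 (88.7%, 80.6 to 94.2). Barcode 55-68976 had 65 of 76 there (85.5%, 75.6 to 92.5) and 50-60095 had 94 of 112 (83.9%, 75.8 to 90.2). Barcodes 6-94927 and 21-28628 were less pure, with 35 of 59 (59.3%, 45.7 to 71.9) and 32 of 57 cells (56.1%, 42.4 to 69.3). The intervals of these 2 lie wholly below those of the first 3. Purity in the 7 small members ran from 3 of 11 cells (27.3%) in 5-59042 to 11 of 14 (78.6%) in 96-27973, with intervals too wide to rank them. The base of 5-59042 rests on the tie rule, as cluster 14 also had 3 of its cells, and 16-28768 had exactly 50% of its 14 cells in cluster 6.

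Pooled over cells, 73.9% (69.9 to 77.7) of the member cells lay in cluster 6, against 7.58% of the other called cells and 14.7% of the whole library. Members were chosen by this cluster, and taking them out lowers the share of the other called cells, so the contrast follows from the rule. With each member weighted equally the share was 65.0%, as the 3 purest lineages are also the 3 largest. Of the 12 members, 10 had over 50% of their cells in the base cluster; among all 125 barcodes the figure was 85.6%. The members' median purity was 62.1%, beside 72.9% for the 47 lost barcodes based in cluster 2 or 4. It was 64.0% for the 22 in cluster 3, 60% for the 13 in cluster 8 and 68.8% for the 13 in clusters 9, 14 or 16. Base clusters were chosen on the same cells, which raises all of these shares where cells are few.

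Outside cluster 6 the members had 133 cells, and most lay in the large untreated clusters 2 and 3. Cluster 2 held 51 of the 133 (38.3%, 30.1 to 47.2) and contained cells of all 12 members. Cluster 3 held 37 (27.8%, 20.4 to 36.3), from 11 members. Among called cells of other barcodes outside cluster 6, cluster 2 held 42.4% and cluster 3 held 22.4%, both within the members' intervals. Clusters 8, 9 and 14 held 12, 10 and 10 member cells, 9.02%, 7.52% and 7.52% of the 133, beside 13.2%, 11.4% and 6.02% for the other barcodes, again within the intervals. Clusters 0, 10, 11, 12 and 13 are filled mainly by eribulin cells, and the only member cell in them was 1 cell of 16-28768 in cluster 0.

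Lineages differed in their second cluster, although it was cluster 2 for 6 of the 12. Barcode 21-28628 had 14 of 57 cells in cluster 3 (24.6%, 14.1 to 37.8), the most of any member, and 4 in cluster 2. Barcode 50-60095 showed the opposite, with 2 cells in cluster 3 and 10 of 112 in cluster 2 (8.93%), and 55-68976 likewise had 1 and 9. Barcode 6-94927 was divided evenly, with 9 cells in cluster 2, 8 in cluster 3 and 4 in cluster 8. The second cluster of 30-58918 was cluster 15, with 7 of 97 cells (7.22%, 2.95 to 14.3). In contrast, it had only 2 cells each in clusters 2 and 3.

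Cluster 15 stood out among the secondary clusters. It held 11 of the 133 member cells outside cluster 6 (8.27%, 4.20 to 14.3) and 1.22% of the other called cells outside cluster 6. Barcode 30-58918 supplied 7 of the 11. Without that barcode, 4 of 122 cells (3.28%, 0.900 to 8.18) lay in cluster 15, an interval that includes the value of the other barcodes. The 11 cells had a median of 8816 cut sites and a median nucleosome signal of 1.38, and the 48 called cells of other barcodes in this cluster had 4841.5 and 1.32. The part of these cell properties in the result was not tested.

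Within cluster 6 cells of a member lay somewhat closer to each other than to other cells. On the UMAP of the authors, where cells with like accessibility lie side by side, 14.6% of the 10 nearest called cluster 6 neighbours of a member cell had its own barcode, where complete mixing gives 8.73%. For barcode 21-28628 the share was 12.2% against 4.43% with mixing, and for 30-58918 it was 22.8% against 12.2%. The weakest of the 5 large lineages were 55-68976, with 12.9% against 9.16%, and 6-94927, with 6.86% against 4.86%. The same share was not computed for barcodes outside the set, so this closeness is not shown to be particular to the members. The map was made from the same peaks as the clusters and gives no independent evidence of them.

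Pooled, member cells were about as deeply sequenced as the other called cells of their library, although single members differed. Their median was 5432.5 cut sites in peaks (quartiles 3784.25 and 8359), and that of the other called cells was 5423.5 (3606 and 8442.5). The lowest member median was 3844.5 cut sites, in 16-28768, followed by 3979 in 37-46701. At the other end were 61-16851 with 7900.5 and 5-59042 with 6778, all 4 of them small lineages. Medians of the 5 large lineages ran from 4645 in 55-68976 through 5068.5 in 50-60095, 5448 in 21-28628 and 5534 in 6-94927 to 6314 in 30-58918. Of the 12 medians, 6 lay below 5375, the median over the other 113 barcodes with at least 10 cells. Below the lower quartile of those barcodes, 4797, were 5 of the 12, and 3 were above the upper quartile, 6040.5. Depth did differ by position: 11 members had fewer median cut sites in cluster 6 than outside it, with pooled medians of 5143 and 6173. Cells of other barcodes showed medians of 4992 in cluster 6 and 5464 outside.

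The nucleosome signal divides the number of fragments that span 1 nucleosome by the number of shorter ones from nucleosome-free DNA. It was lower in member cells than in other called cells of the library, with medians of 0.868 (quartiles 0.790 and 0.972) and 0.911 (0.818 and 1.01). Of the 12 members, 11 had a median below 0.921, the median over the other 113 barcodes. Of these medians 5 lay below the lower quartile of those barcodes, 0.872, and 0 lay above the upper quartile, 0.967. Lost barcodes with other base clusters were not all alike. The median over cells was 0.869 for those based in clusters 9, 14 or 16, 0.883 for cluster 3, 0.897 for cluster 8 and 0.963 for cluster 2 or 4. The members were thus level with the first of these sets and farthest from the last. No test was made, because all of these barcodes come from 1 library.

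Within clusters 6, 2 and 3, which held most member cells, the member medians were not the lower ones. In cluster 6 the median was 0.847 in member cells and 0.840 in called cells of other barcodes, and it was 0.848 in the 606 cluster 6 cells called negative. Outside cluster 6 it was 0.934 in member cells and 0.918 in other called cells. Within cluster 2 the medians were 0.982 in member cells and 0.977 in other cells, and within cluster 3 they were 0.895 and 0.868. In cluster 8 the 12 member cells had the lower median, 0.872 against 0.897. A lineage therefore had different values in different clusters: 11 of the 12 members had a lower median in cluster 6 than outside. In 30-58918 the medians were 0.821 inside and 1.04 outside, and in 55-68976 they were 0.839 and 0.978. Both outside values rest on few cells, as 86 of 97 and 65 of 76 cells lay in cluster 6. Of the outside cells of 30-58918, 7 lay in cluster 15, where the median over member cells was 1.38. The smallest difference among the 5 large lineages was in 21-28628, with 0.897 and 0.916, and the exception was 16-28768, with 0.849 and 0.838.

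Among members, 5-59042 had the lowest median signal, 0.799 over 11 cells, followed by 30-58918 with 0.841. Barcode 89-62622 had the highest, 0.945 over 18 cells, followed by 21-28628 with 0.913. The quartiles of the lowest and the highest, 0.788 to 0.930 and 0.862 to 1.06, overlap. The enrichment of cuts at transcription start sites, a measure of signal quality, had a median of 5.07 in member cells and 5.001 in other called cells. Member medians ran from 4.84 to 5.40, and 7 of the 12 were above 5.10, the upper quartile of the other 113 barcodes. Of those 7, 6 were small lineages of at most 19 cells.

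The count of 0 after eribulin was set against what the untreated share would give. If barcode 50-60095 had kept its share of 2.35% (1.94 to 2.82), 32.6 of the 1391 called eribulin multiome cells would carry it. A count of 0 in that library allows a share of up to 0.216% (3 counts), 10.9-fold below the measured untreated share and 8.98-fold below the lower end of its interval. The number of cells at unchanged share was 28.3 for 30-58918, 22.2 for 55-68976, 17.2 for 6-94927 and 16.6 for 21-28628. From the lower ends of their untreated intervals to the limit, the folds were 7.66, 5.83, 4.37 and 4.20. For the 7 small members 3.21 to 5.54 cells would be found, and the same fold ran from 0.534 in 5-59042 to 1.11 in 15-58202, where a value below 1 means that no lower share is shown. Pooled, the 12 members would have 149 eribulin cells, and the lower end of their untreated interval was 45.6-fold above the limit. That pooled zero follows from the choice of barcodes without eribulin cells.

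For 8 of the 12 members the whole untreated interval lay above 0.216%. The 0 cells and the minimum size were used to choose the members, so this count describes how much the depth can resolve and is no test of the loss. Over all 125 barcodes with at least 10 untreated cells, 50.4% had an untreated interval above their eribulin limit or interval. Among the other lost barcodes it was 51 of 95. The dividing line is size alone, as 18 untreated cells were enough and 17 were not. The 4 members below it, 37-46701, 16-28768, 96-27973 and 5-59042, had untreated intervals that reach down to between 0.115% and 0.176%, and a lower share was not detectable for them at this depth. With the exact upper bound for 0 of 1391, 0.265%, in place of 3 counts, 5 of the 12 lay above it, namely the 5 large lineages.

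These limits depend on the few barcodes that filled the eribulin library. The 5 most frequent eribulin barcodes had 1244 of its 1391 called cells, which lowers the share of every other barcode. Among the 147 cells left, a count of 0 allows up to 2.04%, and then 0 of the 12 members had an untreated interval above the limit. Barcode 50-60095 came nearest, with 2.39% (1.97 to 2.86) of the untreated cells outside the same 5 barcodes and 3.51 cells at unchanged share. Of all 107 lost barcodes 1 lay above this limit. The pooled members, at 10.9% (9.99 to 11.8) of the untreated cells, would have 15.97 of the 147, and the 5 large ones 12.6. Among cells outside the 5 most frequent eribulin barcodes, a lower share was therefore not detectable for any single member at this depth. The pooled zero is fixed by the choice of members and adds nothing to this.

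Barcodes based in cluster 6 were missing after eribulin about as often as barcodes based elsewhere, a difference that was not tested. Of the 14 cluster 6 barcodes with at least 10 untreated cells, 12 had 0 eribulin multiome cells (85.7%), and of the 111 based elsewhere 95 did (85.6%); the figure for all 125 was 85.6%. Cluster 6 was the base of 11.2% of the 125. There were 2 exceptions. Barcode 6-93034 went from 12 untreated cells (0.251%, 0.130 to 0.439) to 403 eribulin cells (29.0%, 26.6 to 31.4). Barcode 43-75462 went from 20 cells (0.419%, 0.256 to 0.647) to 2 cells (0.144%, 0.0174 to 0.518), and these intervals overlap. In the untreated library 6-93034 had 5 of 12 cells in cluster 6 and a median nucleosome signal of 0.842, and 43-75462 had 12 of 20 and 0.925. Both signals lie inside the range of the lost members.

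Just below the size limit were 36-56638 and 97-52720 with 9 untreated cells each and 64-31923 with 8, also with 0 eribulin cells. Their purities were 6 of 9, 3 of 9 and 5 of 8 cells in cluster 6. All 11 cluster 6 barcodes of 5 to 9 untreated cells, 72 cells together, had 0 eribulin multiome cells. For each of these barcodes alone, a count of 0 shows no lower share at that size. The 72 cells pooled were not set against the limit.

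Cells without a single called barcode could hide a member. In the eribulin multiome library 6622 cells were called negative, 56 doublet, 6 multiplet and 39 unmapped, and the deposited table does not name their barcodes. Of the 26 eribulin multiome cells in cluster 6 itself, 12 had a called barcode, and these belonged to 5 barcodes, among them 6-93034 with 3 cells and 43-75462 with 2. None of the 12 was a member, as the rule requires.

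The scATAC libraries of run 1 took no part in choosing the members and also had 0 eribulin member cells. The sources used here do not say whether the treated cells of both runs came from 1 culture. If they did, this 0 would follow in part from the choice of members, so it is no independent test of the loss. Members had 7 of the 29 called untreated cells (24.1%, 10.3 to 43.5) and 0 of the 84 called eribulin cells, which allows up to 3.57%. The untreated interval lies above that limit, and the share was lower after eribulin by at least 2.88-fold, from the lower end of that interval. The 84 eribulin cells held only 7 distinct barcodes. Of the 84, 49 carried barcodes of at least 10 untreated multiome cells that were also called in the eribulin multiome library. A few barcodes thus filled this library too, which lowers every other share, and the limit was not computed without them. The 7 cells were 3 of 30-58918, 2 of 55-68976, 1 of 6-94927 and 1 of 89-62622, so 8 of the 12 members were not seen in scATAC at all. At their multiome share the members would have had 3.10 of the 29 cells, and the multiome share of 10.7% lies just inside the scATAC interval. The other 95 lost barcodes had 6 untreated cells (20.7%, 7.99 to 39.7) and also 0 eribulin cells. At their multiome share of 53.2% they would have had 15.4 of the 29, and that share lies above their scATAC interval. The called untreated cells of the 2 runs thus differed in their make-up of lineages. By contrast 6-93034 had 0 untreated and 8 eribulin scATAC cells.

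The base cluster was not seen again in the few member cells of scATAC. Of the 7 untreated member cells 4 lay in cluster 4, and 1 each in clusters 3, 9 and 14. Cluster 4 was common in that library, with 31.2% of all and 31.0% of the called ones, whereas it had only 92 of the 9583 untreated multiome cells. In cluster 6 there were 0 of 7, and the exact upper bound of 41.0% lies below the 69.9% at the lower end of the multiome interval. The 7 cells came from only 4 barcodes, 3 of them from 30-58918, whereas the multiome interval pools all members. Both intervals cover counting error only. Cluster 6 was well occupied in that library, with 15.2% of all cells and 7 of the 29 called cells, none of them a member. The 7 member cells had 4639 to 21348 cut sites and a median nucleosome signal of 1.19, and the 22 other called cells had a median of 1.02. Only 0.310% of the untreated scATAC cells had a called barcode, and the sources used here do not describe the calling. Whether the calling bears on the difference between the protocols was not tested.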

How the data were processed

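Chromatin accessibility and lineage barcodes of 4 libraries, 1 per group, were taken from 3 deposited tables. Per the series' design text, the authors made peak matrices with cellranger-atac 1.2.0 (run 1) or cellranger-arc 1.0.0 (run 3) on mm10 and filtered and clustered the cells with Signac 1.1.1; the submitters' processing notes also name Cell Ranger 3.1.0 and 4.0.0. The deposited counts of cut sites and peaks per cell are whole numbers without normalization, the deposited nucleosome signal and TSS enrichment are a ratio per cell, and the deposited UMAP coordinates are a unitless score, per the file headers. The sources used here do not describe the barcode calling.

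Names written in 3 forms were joined by the numbers of both parts; all 490 barcodes were in the deposited list of 10000000 sequences. Negative, doublet, multiplet and unmapped cells were left out of barcode shares. Shares, exact binomial intervals, medians and the 3-count limit were computed with Python 3.11.15, pandas 2.3.3, numpy 2.4.6 and scipy 1.17.1, and checked on simulated cells with known members. No test between groups was made, as each has 1 library. The members and comparisons were chosen with earlier results of these data known. All members are named; values are given in full for the 5 largest, the extremes of purity, cut sites and nucleosome signal, and those seen in scATAC. Alternatives changed the size limit, denominator, weighting, depth range and limit for 0 counts.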

Additional observations from a re-analysis of the deposited data

How the results depend on the processing

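Of 21 alternatives, 1 of them chosen after seeing the data, 10 moved a value beyond its counting interval or a count beyond 1.5 times, and 1 reversed a sign. The number of members was 12, with a minimum of 5 untreated cells 23, and with 20 cells 5. The members' untreated share was 10.7%, and 12.2% and 8.40% with those minimums, and 5.32% of all cells of the library. The number with an untreated interval above the eribulin limit fell from 8 to 5 with the exact upper bound and to 0 without the 5 most frequent eribulin barcodes. The pooled share in cluster 6 was 73.9%, with equal weights 65.0%, and with at least 20 cells 77.8%. The median nucleosome signal of members minus other called cells was -0.0433, and within cluster 6 its sign reversed, to 0.00710. There the intervals of the medians from order statistics, 0.834 to 0.863 for members and 0.823 to 0.855 for other called cells, overlap. A difference within cluster 6 is therefore not shown in either direction. The share of outside cells in cluster 15 moved from 8.27% to 3.28% without barcode 30-58918. The difference in median cut sites was 9, with an interval of -503 to 334 from order statistics, and its alternatives stayed inside. The scATAC values rest on few called cells. No paired analysis was possible because each group has 1 library.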
